A study of Mus musculus with 6 samples.

Results

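Genes of the hypoxia response and of glycolysis were compared in the subventricular zone (SVZ) after stroke. They are 38 genes picked by name for known roles in these pathways. A gene counted as measured where the array annotation gave a probe set its symbol and no other, and the brightest such probe set stood for the gene. By that rule 35 of the 38 were measured, out of 18194 genes on the array. Bnip3l, Gpi1 and Eno1 had no probe set with only their symbol and were not analysed here.

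Cells that lack oxygen stabilise the hypoxia-inducible factors (HIFs), transcription factors whose alpha subunits are otherwise hydroxylated by oxygen-dependent prolyl hydroxylases and degraded. HIFs bind a short DNA element, the hypoxia response element, near genes for vessel growth, glucose uptake, glycolysis, lactate production and removal of mitochondria. In ischemic brain this response is known mainly from the hours and days in which tissue around the blocked vessel is short of oxygen.

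The MCAO group was SVZ from adult male C57BL/6 mice sampled 48 h after occlusion of the middle cerebral artery (MCAO), a stroke model in which blood flow to striatum and lateral cortex is cut, with the SVZ taken on the side of the lesion. The sham group was SVZ from mice of the same strain and sex sampled 48 h after sham surgery. Each group had 3 arrays of total RNA from whole dissected tissue, and no label says that each array held a separate mouse. The sources used here do not give the length of the occlusion.

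Values are log2 expression after quantile normalization between arrays. Samples are numbered 1 to 3 in both groups, and same-numbered arrays deviated together from their group means. Results are therefore also given with the sample number as a block in the fit where that changes the call. No label states a pairing, so those results rest on taking the numbers as pairs. The arrays numbered 1 stood apart in both groups: their poly-A spike controls averaged 7.63 on MCAO 1 and 7.92 on sham 1, against 8.76 to 9.17 on the other 4 arrays (24 probe sets each). As a check of the tissue, Dcx, a microtubule protein of neuroblasts, stood at 9.13 ± 0.16 in MCAO and 9.01 ± 0.12 in sham (SD, n = 3 each). Drd1, a dopamine receptor of striatal neurons, stood at 11.27 in MCAO and 11.61 in sham.

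At 48 h the differences between MCAO and sham tissue ran in both directions across the set, and most were small against their error. In limma's fit across all genes, with p-values adjusted by Benjamini and Hochberg's method, 0 of the 35 passed an adjusted p of 0.05, against 1.13% of all genes (1.12% rose and 0.0165% fell). At an unadjusted p under 0.05, Hk2, Adm and Ldha were higher (8.57% of the 35, against 6.32% of all genes), and Bnip3 and Ddit4 were lower (5.71%, against 2.46% of all genes). The median difference, MCAO minus sham, was 0.024 log2 over the 35 and −0.0064 over all genes, and 20 of the 35 (57.1%) had a higher mean in MCAO, against 47.7% of all genes. Within same-numbered pairs, 12 were higher in all 3 (34.3%, against 20.0% of all genes) and 10 were lower in all 3 (28.6%, against 19.9%).

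The intervals bound how large a change could have been missed. No member differed by 1 log2 (2-fold) or more, 1 differed by 0.5 or more, and 26 differed by less than 0.2. The 95% interval of the difference lay within 1 log2 of 0 for 34 of the 35, all but Hk2 (97.1%, against 98.3% of all genes), and within 0.5 log2 for 23 (65.7%, against 85.1% of all genes). The half-width of that interval ran from 0.17 (Pfkp) to 0.73 log2 (Pfkl). A difference that misses the threshold is therefore not shown to be absent, but a 2-fold change lay outside the interval for those 34.

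**Figure D1:**
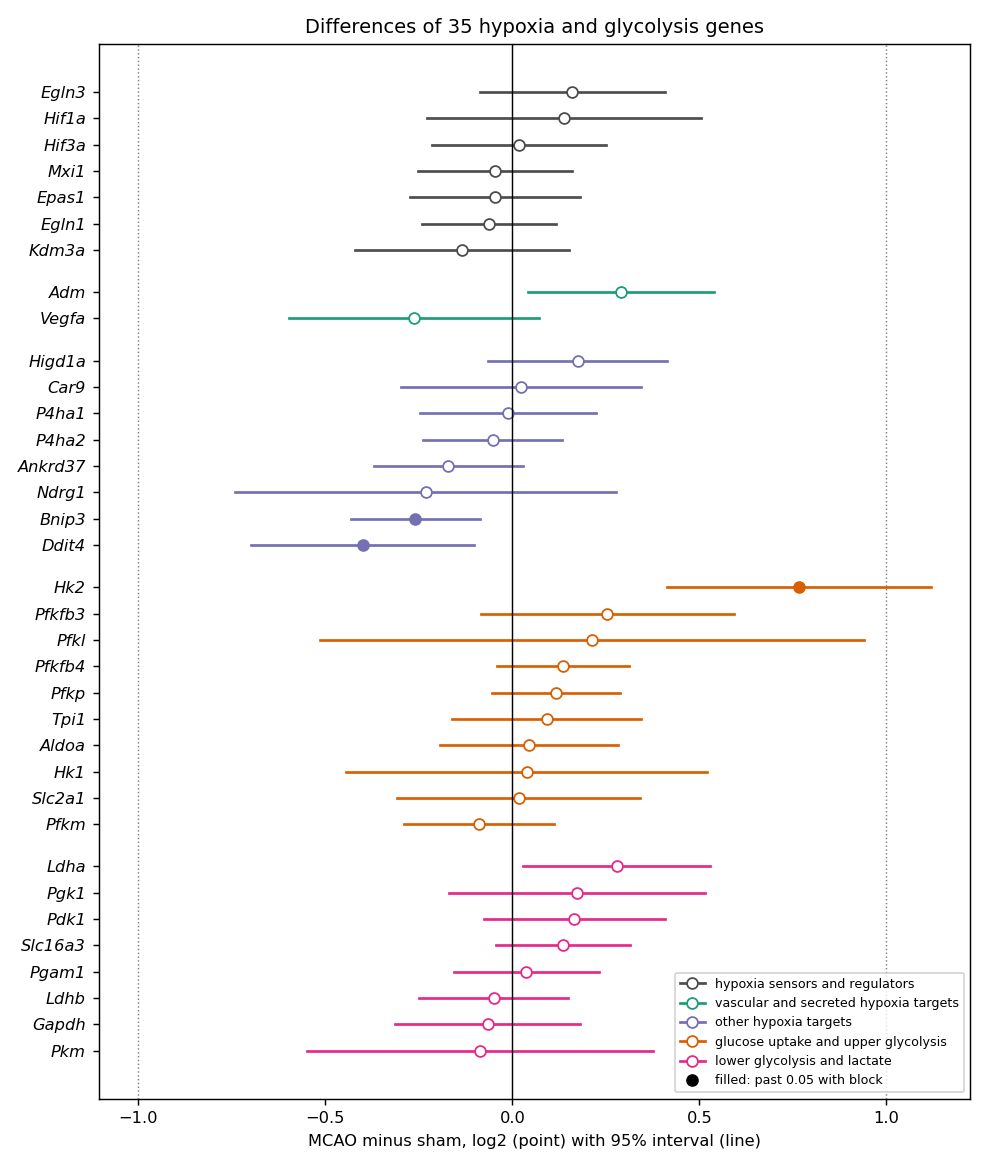
MCAO minus sham on the log2 scale (horizontal axis) for each of the 35 measured genes, with the 95% interval of the fit without the block, grouped and coloured by role; dotted lines mark 1 log2 either way, and filled points passed 0.05 with the sample number as a block. Hk2 sits farthest to the right at 0.77 and Ddit4 farthest to the left at −0.40, and most intervals cross 0.

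With the sample number as a block, 3 of the 35 passed: Hk2 rose (2.86% of the 35, against 4.82% of all genes), and Ddit4 and Bnip3 fell (5.71%, against 1.30% of all genes). That count depended on which pair of arrays was kept. Without the pair numbered 1 it was 2 (Hk2, Ddit4) and without the pair numbered 3 it was 1 (Hk2). Without the pair numbered 2 it was 5: Hk2, Ldha (0.36 log2, adjusted p = 0.0149) and Adm (0.31, 0.0460) higher, Vegfa (−0.37, 0.0155) and Ddit4 lower. Hk2 was the only member called in all 3 of these fits.

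Hk2 encodes hexokinase 2, the inducible form of the enzyme that traps glucose in the cell by phosphorylating it. It read 7.70, 7.14 and 7.30 log2 on MCAO arrays 1 to 3, against 6.69, 6.43 and 6.73 on sham arrays 1 to 3. Hk2 rested on 1 probe set and lay below the median gene, with 46.5% of all genes at a lower mean. All 3 MCAO values lay above all 3 sham values, as they did for 8.44% of all genes. The difference was 0.77 ± 0.15 log2 (SE, n = 3 per group), or 1.70-fold, with an interval from 0.41 to 1.12 and an adjusted p of 0.0784 by limma. Within same-numbered samples it was 1.02, 0.71 and 0.57, and with the block Hk2 rose at an adjusted p of 0.000570. On the values as deposited, also with the block, it read 0.79 with an adjusted p of 0.000260. With an intensity trend in the variance and no block it passed as well (adjusted p = 0.0317).

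Markers of other cells moved in the same tissue. The mean log2 level of 5 microglia markers was 9.20, 8.68 and 8.88 on MCAO arrays 1 to 3, against 8.52 to 8.59 on the sham arrays. All 5 had a higher mean in MCAO, against 47.7% of all genes, but only Csf1r did not overlap between the groups. P2ry12 was lower in MCAO within the pair numbered 3 (−0.20) and Siglech within that numbered 2 (−0.035). Of the 5, 0 passed the threshold without the block and 3 rose with it, against 4.82% of all genes. Of 6 astrocyte markers 2 rose (4 with the block), against 1.12% (4.82%) of all genes. The mean level of the 6 ran from 10.82 to 10.99 on the MCAO arrays and from 10.002 to 10.14 on the sham arrays. Among them Gfap had the largest difference (2.69), Gja1 overlapped between the groups (0.16), and Slc1a2 was lower within all 3 pairs (−0.28). Of 5 markers of monocytes and macrophages 2 rose, against 1.12% of all genes, and 4 had a higher mean in MCAO. The mean level of the 5 was 6.63 to 6.76 in MCAO and 6.34 to 6.39 in sham. Ccr2 differed by 0.039, and Cd163 was lower on all 3 MCAO arrays than on any sham array (−0.13). All 6 neuroblast markers and all 5 ependymal markers also had a higher mean in MCAO, against 47.7% of all genes, with medians of 0.17 and 0.25 log2. In each of these 2 lists 0 passed without the block and 1 rose with it, against 4.82% of all genes. Their mean levels overlapped between the groups. The part of any of these cells in the Hk2 difference was not tested. In whole tissue, fewer cells of a type and less RNA per cell cannot be told apart.

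**Figure D2:**
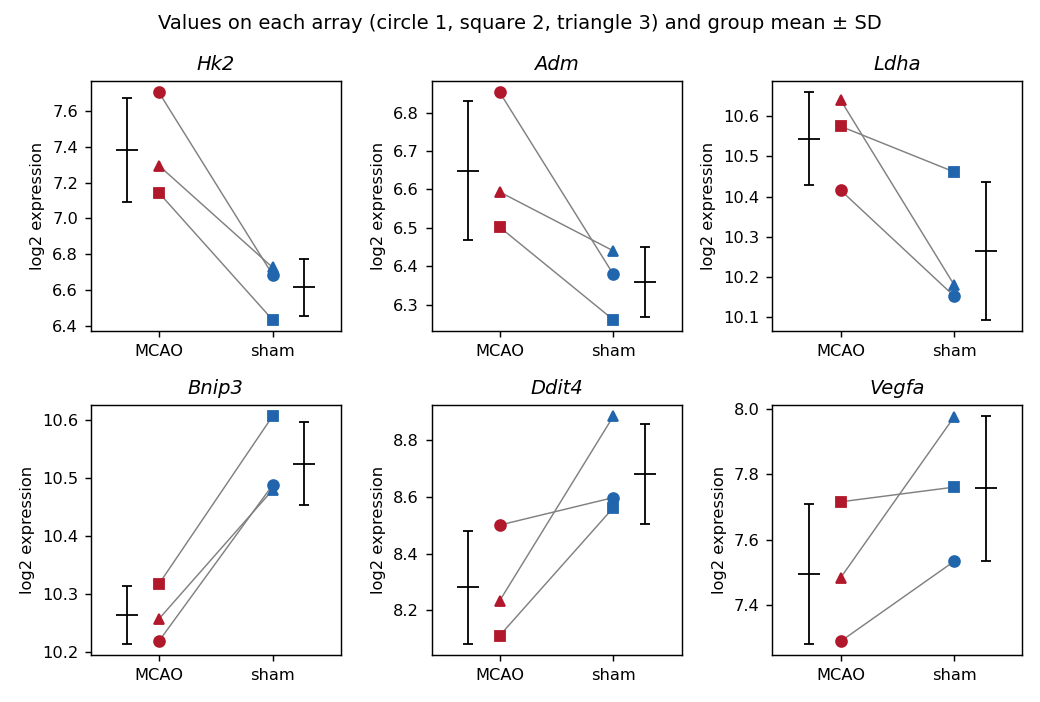
Log2 expression (vertical axis, a separate range in each panel) of 6 members on each MCAO and sham array; grey lines join same-numbered samples, and black bars give the group mean and SD of 3 arrays. Hk2 and Adm lie above sham on all 3 MCAO arrays and Bnip3 and Ddit4 below, while Ldha and Vegfa overlap between the groups.

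The rest of the upper glycolytic path differed less. Hk2 is among the 10 measured genes for glucose uptake and the steps down to triose phosphate. Of these 10, 9 had a higher mean in MCAO, against 47.7% of all genes. The median of the 10 was 0.10 log2, and 0 passed without the block and 1, Hk2, with it. Slc2a1, the GLUT1 glucose transporter of the blood-brain barrier, read 10.55, 10.19 and 10.28 in MCAO, against 10.59, 10.23 and 10.15 in sham. The groups overlapped, with a difference of 0.017 ± 0.14 log2 (SE), and its 2 dimmer probe sets read 0.13 and 0.11. Hk1, the constitutive brain hexokinase, read 9.12, 9.47 and 9.71 in MCAO, against 8.98, 9.52 and 9.68 in sham, a difference of 0.039 ± 0.21.

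Phosphofructokinase, the committed step of glycolysis, has 3 isozyme genes. The platelet-type Pfkp read between 10.04 and 10.07 in MCAO and between 9.85 and 10.01 in sham, so the groups did not overlap, but by only 0.12 ± 0.073 log2 (adjusted p = 0.807, and 0.433 with the block). The dimmer probe sets of Pfkp read 0.031 and −0.052. The muscle-type Pfkm read −0.089 ± 0.086 and the liver-type Pfkl 0.21 ± 0.31. Pfkl split by sample number instead, at 8.35 on MCAO 1 and 8.10 on sham 1, against 9.21 to 9.24 on the other MCAO arrays and 9.005 to 9.05 on the other sham arrays.

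Pfkfb3 and Pfkfb4, whose products make the activator of phosphofructokinase, read 0.25 ± 0.14 and 0.14 ± 0.076 log2, and both overlapped between groups. Pfkfb3 differed by 0.58 within the samples numbered 2 and by 0.076 and 0.11 within the other pairs. The aldolase gene Aldoa differed by 0.045, and its other 4 probe sets by −0.013 to 0.036. Tpi1, for triose phosphate isomerase, differed by 0.092.

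In the lower path, from glyceraldehyde phosphate to lactate, 5 of 8 measured genes had a higher mean in MCAO, against 47.7% of all genes, with a median of 0.086 log2, and 0 passed with or without the block. Ldha, the lactate dehydrogenase subunit that favours making lactate, read 10.42, 10.58 and 10.64 in MCAO, against 10.15, 10.46 and 10.18 in sham. MCAO 1 lay below sham 2, so the groups overlapped. The difference was 0.28 ± 0.11 log2 (SE, n = 3 per group; adjusted p = 0.472, and 0.0743 with the block), and it was positive within all 3 pairs at 0.26, 0.11 and 0.46.

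Ldhb, the subunit that favours using lactate, read 11.63 to 11.69 in MCAO and 11.57 to 11.80 in sham, a difference of −0.050 ± 0.086. Its 3 dimmer probe sets read −0.11, −0.14 and −0.15. To ask whether isozymes of a step changed unequally, the within-array log2 ratio of Ldha to Ldhb, of Hk2 to Hk1 and of Pfkp to Pfkm was compared between the groups, a choice made after the values were seen. The Ldha to Ldhb ratio was higher in MCAO by 0.33 log2, with all 3 MCAO values above all 3 sham values (exact permutation p = 0.10, 2-sided, the smallest that 3 against 3 arrays can give; 0.30 adjusted over the 3 ratios). The Hk2 to Hk1 ratio was higher by 0.73 and that of Pfkp to Pfkm by 0.21, with groups that overlapped (exact permutation p = 0.30 and 0.20, adjusted 0.30 for both). Within same-numbered samples each of the 3 ratios was higher in MCAO in 3 of 3 pairs.

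Gapdh, often used as a loading control, was read by the manufacturer's control probe sets along its transcript. The 3′ set read 12.98, 13.15 and 13.18 in MCAO, against 12.97, 13.29 and 13.25 in sham. It differed by −0.066 ± 0.11 log2, and by 0.027 on the values as deposited, so its sign depended on the scaling. The middle and 5′ sets read −0.063 and −0.081. The 3′ minus 5′ difference, a measure of RNA integrity, was 0.10, 0.11 and 0.26 on the MCAO arrays and 0.047, 0.28 and 0.098 on the sham arrays, so neither group was set apart by it.

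Pgk1, for phosphoglycerate kinase, differed by 0.17 ± 0.15, and its other 2 probe sets by 0.18 and 0.11. Pgam1, for phosphoglycerate mutase, differed by 0.037 and the pyruvate kinase gene Pkm by −0.086. Slc16a3, the MCT4 lactate exporter, read 6.29 to 6.37 in MCAO and 6.12 to 6.30 in sham, a difference of 0.13 ± 0.077. Pdk1, a kinase that shuts pyruvate out of mitochondria, differed by 0.17 ± 0.10, but its dimmer probe sets read −0.066, 0.19 and −0.048. Of these 5 genes, 0 passed with or without the block.

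Of 8 other hypoxia targets 6 had a lower mean in MCAO, against 52.3% of all genes, with a median of −0.11 log2, and this count was not tested. Ddit4, an inhibitor of mTORC1 signalling also called REDD1, read 8.50, 8.11 and 8.23 in MCAO, against 8.60, 8.56 and 8.89 in sham. All 3 MCAO values lay below all 3 sham values, as for 5.37% of all genes. The difference was −0.40 ± 0.13 log2 (SE, n = 3 per group; adjusted p = 0.330 by limma), or −0.097, −0.45 and −0.65 within same-numbered samples, and Ddit4 fell with the block (adjusted p = 0.0395). It did not pass in the blocked fit of the deposited values (−0.37, 0.0990) or with the block and without the pair numbered 3 (−0.27, 0.219).

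Bnip3, whose product sits on mitochondria and marks them for removal, read 10.22, 10.32 and 10.26 in MCAO, against 10.49, 10.61 and 10.48 in sham. The groups did not overlap, and the difference of −0.26 ± 0.074 (adjusted p = 0.248) was even across pairs, at −0.27, −0.29 and −0.22. Bnip3 fell with the block (adjusted p = 0.0484), but not in the blocked fit of the deposited values (−0.22, 0.267), nor with it when any pair was left out (0.296, 0.0752 and 0.128 without the pairs numbered 1, 2 and 3). Beside these falls, all 7 neuron markers were lower in MCAO, against 52.3% of all genes, with a median difference of −0.20 log2. Of the 7, 0 passed the threshold without the block and 1, Drd1, fell with it, against 1.30% of all genes. The mean level of the 7 ran from 10.63 to 10.92 on the MCAO arrays and from 10.90 to 11.14 on the sham arrays. The part of neurons in the Bnip3 and Ddit4 differences was not tested.

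The other 6 targets did not pass with or without the block. Ankrd37, an ankyrin-repeat gene among the classic HIF targets, read 7.63, 7.52 and 7.43 in MCAO, against 7.71, 7.79 and 7.604 in sham, a difference of −0.17 ± 0.086 log2. Ndrg1, a stress-responsive gene that is also abundant in oligodendrocytes, differed by −0.23 ± 0.22, and its other 4 probe sets by −0.24 to −0.094. Higd1a, a mitochondrial protein gene, differed by 0.17, but its other 2 probe sets read −0.12 and −0.13. The collagen prolyl hydroxylase genes P4ha1 and P4ha2 differed by −0.012 and −0.053, and Car9, a carbonic anhydrase that is among the most HIF-dependent genes known from tumours, by 0.024 ± 0.14. P4ha1 turned to 0.028 on the values as deposited.

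Neither of the 2 secreted targets passed with or without the block. Adm, for the vasodilator peptide adrenomedullin, read 6.85, 6.50 and 6.59 in MCAO, against 6.38, 6.26 and 6.44 in sham. All 3 MCAO values lay above the sham values, as for 8.44% of all genes. The difference was 0.29 ± 0.11 log2 (SE, n = 3 per group), with an adjusted p of 0.434 by limma and 0.0604 with the block. Adm was dim, with 32.6% of all genes at a lower mean. Its second, dimmer probe set, which ends in a plain _at and so is less open to related transcripts, read 0.37.

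Vegfa, the main vessel growth factor of the HIF response, read 7.29, 7.72 and 7.48 in MCAO, against 7.53, 7.76 and 7.98 in sham. It was lower within each pair, at −0.25, −0.045 and −0.49, and the groups overlapped. The difference was −0.26 ± 0.14 log2 (adjusted p = 0.738, and 0.126 with the block), with an interval from −0.60 to 0.072, so a rise of 2-fold lay well outside it. The second probe set read −0.093. Endothelial markers, 7 genes with a mean level of 7.29 to 7.46 in MCAO and 7.30 to 7.37 in sham, had a median difference of 0.048 and 0 passed with or without the block.

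The genes that sense oxygen and carry the response differed little in RNA, with a median of −0.046 log2 over 7 genes and 0 past the threshold with or without the block. Since HIF alpha subunits are controlled mainly through protein stability, these values do not measure HIF activity. Hif1a read 10.10, 9.62 and 9.61 in MCAO, against 9.87, 9.49 and 9.56 in sham, a difference of 0.14 ± 0.16, and its other 3 probe sets read −0.10, 0.19 and −0.11. Epas1, for HIF-2 alpha, differed by −0.046 and Hif3a, whose shorter products can restrain the others, by 0.018.

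The prolyl hydroxylase genes Egln1 and Egln3, themselves known HIF targets, differed by −0.062 ± 0.077 and 0.16 ± 0.11. Egln3 was higher in MCAO within all 3 pairs, at 0.26, 0.13 and 0.090, while the groups overlapped. Mxi1, a MYC antagonist, differed by −0.046 and Kdm3a, a histone demethylase induced by hypoxia, by −0.14.

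The promoters of the 5 members with the smallest unadjusted p were read for the core letters of the hypoxia response element (chosen after their values were seen), since these letters are what a HIF binds. The windows run from 250 bases before to 50 after the start site (RefSeq, GRCm38.p6, 5′ to 3′ on the gene's strand). Capitals mark ACGTG or GCGTG on either strand. A CACGTG, which is also an E-box bound by MYC-family and circadian factors, holds ACGTG on both strands and counts as 2 matches. Of the 2 Ldha windows the upstream one is shown.
Hk2, chr6:82774405-82774704, minus strand: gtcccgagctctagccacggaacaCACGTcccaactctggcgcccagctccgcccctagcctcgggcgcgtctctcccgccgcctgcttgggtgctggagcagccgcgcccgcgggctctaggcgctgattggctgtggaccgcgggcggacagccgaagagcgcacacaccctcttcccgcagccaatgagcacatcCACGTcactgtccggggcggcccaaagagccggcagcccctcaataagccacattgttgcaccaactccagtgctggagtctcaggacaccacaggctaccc
Ldha, chr7:46845554-46845853, plus strand: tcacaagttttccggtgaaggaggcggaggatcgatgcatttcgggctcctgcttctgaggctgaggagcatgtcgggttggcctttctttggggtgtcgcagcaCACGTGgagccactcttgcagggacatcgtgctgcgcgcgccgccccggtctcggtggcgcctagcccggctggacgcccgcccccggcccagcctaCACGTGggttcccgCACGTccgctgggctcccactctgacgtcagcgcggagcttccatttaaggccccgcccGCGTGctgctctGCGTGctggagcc
Adm, chr7:110627407-110627706, plus strand: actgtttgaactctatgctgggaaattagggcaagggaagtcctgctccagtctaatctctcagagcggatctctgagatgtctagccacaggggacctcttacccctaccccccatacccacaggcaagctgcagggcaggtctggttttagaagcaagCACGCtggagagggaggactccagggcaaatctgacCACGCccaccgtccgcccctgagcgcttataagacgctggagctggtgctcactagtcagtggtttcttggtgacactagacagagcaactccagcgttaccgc
Bnip3, chr7:138909457-138909756, minus strand: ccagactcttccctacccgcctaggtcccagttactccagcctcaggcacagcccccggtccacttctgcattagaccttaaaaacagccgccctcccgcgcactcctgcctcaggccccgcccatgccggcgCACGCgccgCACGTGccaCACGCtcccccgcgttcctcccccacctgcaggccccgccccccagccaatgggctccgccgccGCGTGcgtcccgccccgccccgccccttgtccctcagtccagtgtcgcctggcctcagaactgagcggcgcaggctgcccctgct
Ddit4, chr10:59951721-59952020, minus strand: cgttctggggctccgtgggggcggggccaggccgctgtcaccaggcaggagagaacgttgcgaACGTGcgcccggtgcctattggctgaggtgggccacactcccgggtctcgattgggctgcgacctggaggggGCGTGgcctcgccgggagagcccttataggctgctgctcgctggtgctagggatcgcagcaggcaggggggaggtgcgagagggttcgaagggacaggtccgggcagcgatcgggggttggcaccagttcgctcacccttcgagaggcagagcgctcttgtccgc

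The Hk2 window held ACGTG 2 times and GCGTG 0 times, that of Ldha 5 and 2 times, and that of Adm 0 and 2 times. The 2 genes lower in MCAO held them too, with 2 and 3 matches at Bnip3 and 1 and 1 at Ddit4. The letters thus stood at genes that read higher and at genes that read lower. Of 48 windows of 33 measured members, 79.2% held ACGTG or GCGTG on either strand, against 54.7% of the windows of genes on the array and 43.8% of all promoter windows. The windows also differed in CpG, which both motifs contain, with a median of 20.5 CpG per window for the members, 16 for genes on the array and 7 for all promoters. The members were picked by name for known roles in the hypoxia response and glycolysis, and a gene can have several windows. The shares do not come from the array values and were not tested. A match shows only that the letters are there.

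Other genes of the pathways, 83 measured of 91 listed, gave 0 passes without the block and 9 with it. At an unadjusted p under 0.05 by limma, 11 were higher, against 6.32% of all genes, and 1 was lower, against 2.46%. Of the 9, 8 rose (9.64% of the 83, against 4.82% of all genes) and 1 fell (1.20%, against 1.30%). Their median difference was −0.0044 log2. In the blocked fit of the deposited values 7 rose, Tkt among them in place of Plod1 and Sqor, and 0 fell. With the block the count was 7 without the pair numbered 1, 14 without that numbered 2 and 2 (P4hb and Slc16a1) without that numbered 3.

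Among 17 other genes of glycolysis and of glucose and lactate transport, Slc16a1, the MCT1 transporter that carries lactate and ketones, had the smallest p. It read 9.29, 8.85 and 8.99 in MCAO, against 8.66, 8.08 and 8.63 in sham, with no overlap. The difference was 0.59 ± 0.18 log2, or 1.5-fold (adjusted p = 0.283), and it rose with the block (adjusted p = 0.00235). Pgm2, for a phosphoglucomutase, followed at 0.20 ± 0.090 and did not pass with the block.

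Of 32 other hypoxia-responsive genes 5 rose with the block, against 4.82% of all genes, and 0 fell. P4hb, the protein disulfide isomerase that is also the beta subunit of collagen prolyl hydroxylase, read 10.01, 10.10 and 10.25 in MCAO, against 9.55, 9.75 and 9.83 in sham, a difference of 0.41 ± 0.10 (adjusted p = 0.165, and 0.00528 with the block). Hmox1, the heme-degrading enzyme that oxidative stress and heme also induce, read 7.31, 6.89 and 7.76 in MCAO, against 6.55, 6.79 and 6.50 in sham. Its difference was 0.71 ± 0.20 (adjusted p = 0.253, and 0.0314 with the block) and 1.01 in the blocked fit without the pair numbered 2, within which it was 0.10. The other 3, named after their values were seen, were the lysyl hydroxylase gene Plod1 (0.31), the chemokine receptor gene Cxcr4 (0.34) and the sulfide-oxidising enzyme gene Sqor (0.30).

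Of 20 genes of pyruvate entry, the pentose phosphate pathway and gluconeogenesis, 2 rose with the block, against 4.82% of all genes, and 1 fell, against 1.30% of all genes. Pgd, of the oxidative pentose phosphate pathway that makes NADPH, read 8.78, 8.96 and 9.24 in MCAO, against 8.06, 8.75 and 8.42 in sham. It differed by 0.58 ± 0.18 log2, or 1.499-fold (adjusted p = 0.319), and rose with the block (0.00976). Taldo1, the transaldolase of the same pathway, read between 10.18 and 10.21 in MCAO and between 9.96 and 10.003 in sham, a difference of 0.21 ± 0.066 (adjusted p = 0.318, and 0.105 with the block). Named after their values were seen, Pgls, for the lactonase before Pgd, rose with the block (0.36, 0.0150), Tkt, for transketolase, read 0.35 (0.0579 with the block), and Pdp1, a phosphatase that switches pyruvate dehydrogenase on, fell with the block (−0.45, 0.0313).

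Of 14 other HIF regulators 0 passed with or without the block, and 10 had a lower mean in MCAO, against 52.3% of all genes, with a median of −0.039 log2. Cited2, which competes with HIF-1 alpha for its coactivator, read 8.47, 8.56 and 8.61 in MCAO, against 8.67, 8.64 and 8.996 in sham, a difference of −0.23 ± 0.11 (adjusted p = 0.654, and 0.133 with the block). Rbx1, a subunit of the ligase that degrades HIF alpha, differed by −0.10 ± 0.078.

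**Figure D3:**
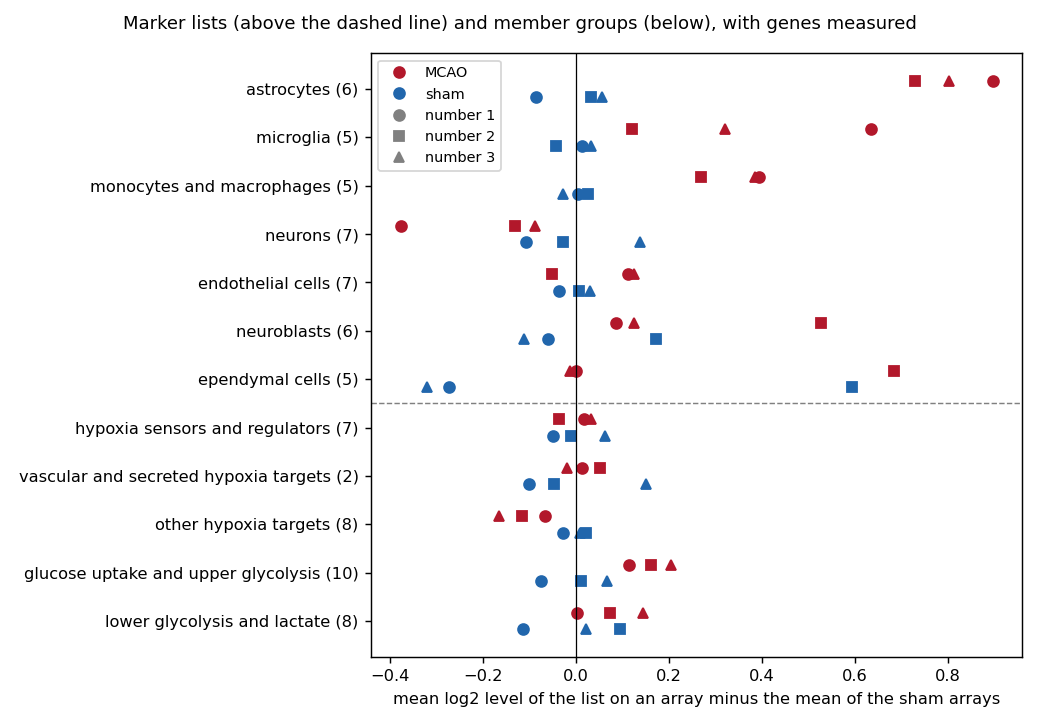
Mean log2 level of each list on each array minus the mean of the 3 sham arrays (horizontal axis), for 7 marker lists above the dashed line and the 5 groups of hypoxia and glycolysis genes below it, with the number of genes measured in brackets and MCAO drawn above sham in each row. The MCAO arrays lie above sham for astrocyte, microglia and monocyte markers, with a wider gap between the groups than in any of the 5 gene groups, and the ependymal markers are high on both arrays numbered 2.

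The mean level of the 10 upper glycolysis genes ran from 9.36 to 9.45 in MCAO and from 9.17 to 9.31 in sham, without overlap. That mean includes Hk2, whose difference of 0.77 was the largest of the 10, against their median of 0.10. It therefore does not show that the group as a whole separated, and the separation was not tested. The mean level of the 8 other hypoxia targets ran from 8.31 to 8.41 in MCAO and from 8.45 to 8.50 in sham, also without overlap. It includes Ddit4, whose difference of −0.40 was the largest in size of the 8, against their median of −0.11. This mean likewise does not show that the group as a whole separated, and its separation was not tested. The sensors and regulators, the secreted targets and the lower glycolysis genes overlapped between the groups.

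Some members also varied with the sample number. In 13 of the 35 both arrays numbered 1 lay outside the range of the other 4 arrays: above it for Hif1a, Slc2a1 and Pgk1 (12.1% of all genes) and below it for 10 genes (18.9% of all genes). Pfkl differed by −0.90 log2 between the arrays numbered 1 and the others, Pkm by −0.55 and Hk1 by −0.55, while Hif1a differed by 0.42, Pgk1 by 0.37 and Slc2a1 by 0.35. In 21 of the 35 this difference was larger in size than that between MCAO and sham, as it was in 60.1% of all genes, so it does not set the members apart. What the numbers stand for is not given in the labels, and these values carry no test.

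**Figure D4:**
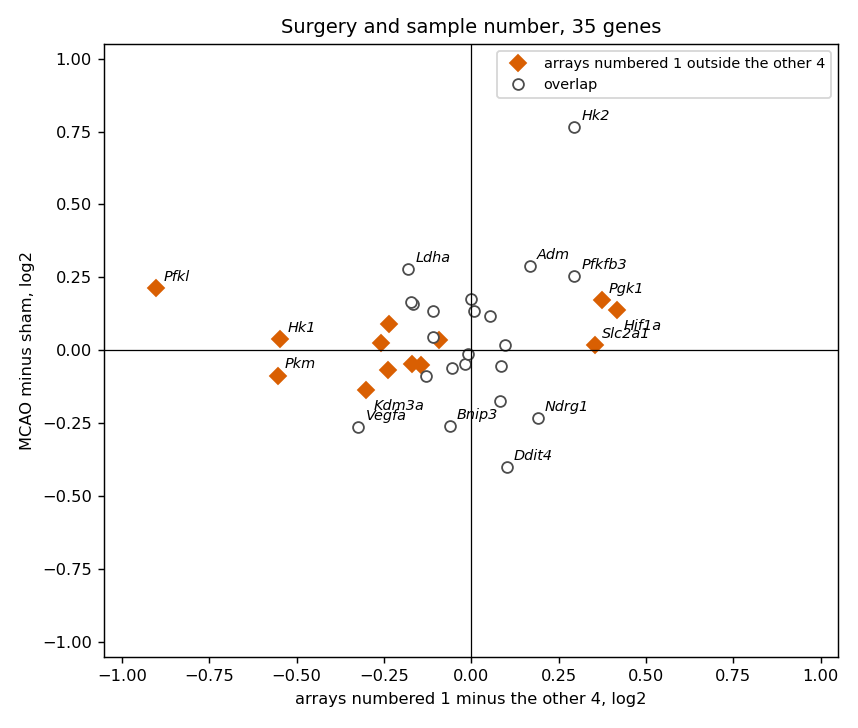
For each of the 35 genes, the mean of the arrays numbered 1 minus the mean of the other 4 (horizontal axis, log2) against MCAO minus sham (vertical axis, log2, same range); diamonds mark the 13 genes whose arrays numbered 1 lie outside the range of the other 4. Pfkl lies farthest to the left, Pkm and Hk1 lie to the left near the line of no difference between MCAO and sham, and Hk2 lies highest.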

How the data were processed

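Total RNA was hybridised to 6 one-colour biotin-labelled arrays. The deposited values are log2 expression, 1 per probe set, for 45101 probe sets; how the authors corrected, summarised and normalized them is not given in the sources used here. Quantile normalization between arrays was added with limma 3.58.1 in R 4.3.3; before it the 90th percentiles of the deposited values ran from 8.85 to 9.06 across arrays. Of the probe sets 34958 had exactly 1 symbol, and the brightest over all 6 arrays stood for each of 18194 genes. MCAO was compared with sham by limma (lmFit, eBayes), 2-sided, with Benjamini-Hochberg adjustment over all genes and a threshold of 0.05. SE is limma's moderated standard error. The number of arrays limits the precision, and p-values cover only the spread among these arrays, part of which may be technical. Sample numbers 1 to 3 occur in each group, and the labels leave their meaning unstated. Deviations of same-numbered arrays from their group means correlated across genes at 0.77, 0.44 and 0.48. Since all exceed 0.1 the numbers were treated as pairs. The deviations in a group sum to 0, so the shared shift of the arrays numbered 1 also raises the correlations for numbers 2 and 3. These 3 values are therefore not independent and do not alone show that the samples are paired. The fit without the block was tested on simulated data with independent noise on each array. The fit with the block, the permutation of the ratios and the promoter search were not tested in that way. The members and lists were chosen with earlier results of these data known. Named genes were all members and, of each other list, those past the threshold or the 2 with the smallest p; others are said to be chosen later. By that rule promoters were to be shown for members past the threshold without the block, and there were none. The members past it with the block were taken instead, and then the 2 next by unadjusted p. These are also the 5 members with the smallest unadjusted p.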

Additional observations from a re-analysis of the deposited data

How the results depend on the processing

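The count of members past the threshold without the block was 0 on the values as deposited, with a common median, with dim genes left out (27 members, Hk2 not among them), with robust variance, with both probe set choices, without both arrays numbered 1 and whichever array was left out. It was 1 with an intensity trend, 3 with the replicate block, 1 in the blocked fit of the deposited values, and, in fits chosen after seeing the data, 2, 5 and 1 with the block and without the pairs numbered 1, 2 and 3. The other pathway genes gave 9 with the block, 7 with it on the values as deposited, and 7, 14 and 2 without those pairs, and 0 in every other fit. The median difference of the members ran from −0.010 to 0.057 when an array was left out and was 0.060 on the values as deposited and −0.012 with dim genes left out.

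Signs turned only for members that did not pass in any fit, and the cause was not tested. On the values as deposited P4ha1 read 0.028 and Gapdh 0.027, with the block or without it, and 0.018 and 0.017 once medians were equalised. Averaged over probe sets, Hif3a read −0.011, Egln1 0.015, Higd1a −0.027 and Hk1 −0.010, and with plain probe sets Hif1a read −0.10. Without both arrays numbered 1 Hif3a read −0.057 and Hk1 −0.012. Leaving out an array gave ranges that crossed 0 for Hif1a (−0.025 to 0.25), Epas1 (−0.11 to 0.045), Hif3a (−0.052 to 0.11), Mxi1 (−0.11 to 0.0033), Slc2a1 (−0.087 to 0.15), Pkm (−0.28 to 0.088), Car9 (−0.10 to 0.12), P4ha1 (−0.078 to 0.059), Hk1 (−0.17 to 0.20), Aldoa (−0.050 to 0.11), Pgam1 (−0.026 to 0.077), Pfkl (−0.098 to 0.50) and Tpi1 (−0.010 to 0.16). Hk2 stayed between 0.60 and 0.88, with an adjusted p from 0.0699 to 0.234. Of the 35 members, 8, Hk2 among them, lay below the median gene, where log2 differences can be compressed.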
